A study of Mus musculus with 9 samples.

Results

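The 10 genes described here mark macrophages, the resident phagocytes of the cochlea: Cx3cr1, Csf1r, Aif1, Adgre1, Cd68, Mrc1, Trem2, Tyrobp, Itgam and Lyz2. They were taken by symbol from the deposited tables. All 10 were among the 25579 symbols of the second table and all 10 passed the filter on low values, as did 17102 symbols in all, while 0 of them were among the 1410 symbols of the first table.

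RNA came from the membranous labyrinth of the mouse cochlea at postnatal day 28, with 3 libraries labelled as biological replicates in each of 3 groups. WT mice carried the mouse Mpzl2 gene. Homozygous mice carried a humanized allele with a nonsense variant, written hMPZL2Q74X/Q74X in the labels. Treated mice had the same genotype and received AAV-ie-ABE8eWQ-SpRY:sgRNA3, an adeno-associated virus that delivers an adenine base editor and its guide RNA, by round window injection on postnatal day 2. The homozygous and treated libraries shared the second table, and the WT libraries stood only in the first, so the 10 genes were compared between treated and homozygous libraries alone. The labels name no group injected with a vehicle or another vector, so the injection, the virus and the edit cannot be told apart. They also do not say whether tissue was pooled from several animals or ears.

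Macrophages live throughout the adult cochlea, in the spiral ligament, around the vessels of the stria vascularis and along the auditory nerve and spiral ganglion. They depend on signals through CSF1R, and CX3CR1 receives fractalkine made by neurons and other cells. After injury or infection, blood monocytes can enter and add to the resident cells.

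Values are transcript abundances in TPM, which scale reads by transcript length and library total, so levels of different genes can be compared but the sequencing depth is unknown. Fold changes are limma estimates of log2(TPM + 1), where changes of low genes come out too small, and adjusted p-values cover all 17102 tested genes. A gene was said to rise or fall where the adjusted p was below 0.05. In bulk tissue, fewer cells of a type and less RNA per cell cannot be told apart.

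Treated libraries 1 and 2 were nearly the same library in their values. The scaled median absolute deviation of the log2 ratio between them was 0.0695 for genes at 1 to 5 TPM, against 0.869 to 1.09 between homozygous libraries, and they were counted as 1 sample by their mean TPM. These libraries also stood apart in marker genes of forebrain neurons. Camk2a, a kinase gene of forebrain neurons, was at 745 and 722 TPM in treated libraries 1 and 2, at 8.13 TPM in treated library 3 and at 0.47 to 0.55 TPM in the homozygous libraries. Tbr1, a transcription factor gene of cortical neurons, was at 27.3 and 26.4 TPM in treated libraries 1 and 2 and listed at 0 in treated library 3. These values are given here because brain tissue contains microglia, which express the same markers. Coch, the gene of the abundant cochlear protein cochlin, was at 6110 to 7698 TPM in homozygous and 3735 to 4141 TPM in treated libraries. Mitochondrially encoded transcripts took 10.7% to 13.6% of TPM in homozygous libraries and 2.17%, 2.22% and 6.16% in treated libraries 1, 2 and 3.

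Part of the macrophage genes rose in the treated cochlea. Of the 10 genes, 4 rose (Lyz2, Aif1, Csf1r and Cx3cr1) and 0 fell, where 3.44% of all tested genes rose and 0.965% fell. All 10 had a positive log2 fold change, as did 61.0% of all tested genes, and 9 of the 10 were higher in each treated library than in every homozygous library, against 28% (4784) of all tested genes. Trem2 was the gene whose groups overlapped. The median log2 fold change of the 10 genes was 1.41, beside 0.20 over all tested genes. The sum of the 10 genes was 107, 182 and 99.9 TPM in homozygous libraries 1, 2 and 3, and 559, 542 and 595 TPM in treated libraries 1, 2 and 3.

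**Figure D1:**
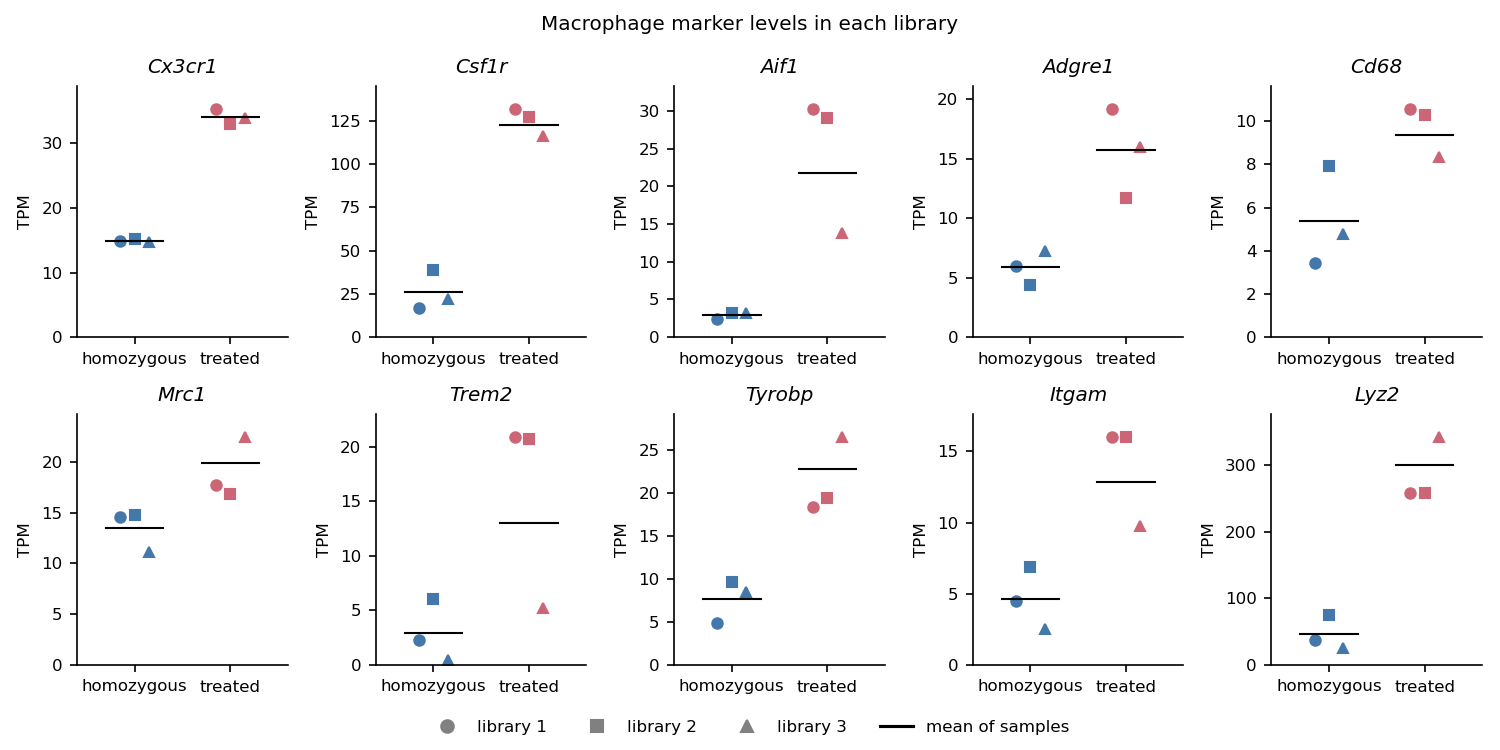
TPM of each of the 10 macrophage genes (vertical axes, from 0) in the homozygous (blue) and treated (red) libraries, with 1 point per library and the mean of samples as a line; treated libraries 1 and 2 count as 1 sample in the mean. Only Trem2 has a treated library below a homozygous one, and treated libraries 1 and 2 lie close together except for Adgre1.

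The 4 calls did not all hold when single homozygous libraries were left out, and calls over all genes also became fewer. Without homozygous replicate 1 or 3, 0 of the 10 genes passed limma, with 6 of 10 at an unadjusted p under 0.05 in each of these fits. In those 2 fits 62 and 67 of all tested genes were called higher, against 589 in the main fit. In the main fit 7 of the 10 genes and 4574 of all 17102 tested genes were at an unadjusted p under 0.05. That number over all genes was not counted for the other fits. Without homozygous replicate 2, Csf1r and Lyz2 passed, and 158 of all tested genes were called higher. With treated library 3 as the only treated sample, which assumes that it varies as the homozygous libraries do, 0 of 10 passed, 6 had an unadjusted p under 0.05, and the median log2 fold change was 1.23. In that fit 1.05% of all tested genes rose. With only treated libraries 1 and 2, which differ from library 3 in the forebrain genes above, the same 4 genes passed (13.2% of all tested genes rose) and the median was 1.47. All 10 log2 fold changes were positive in each of these fits.

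**Figure D2:**
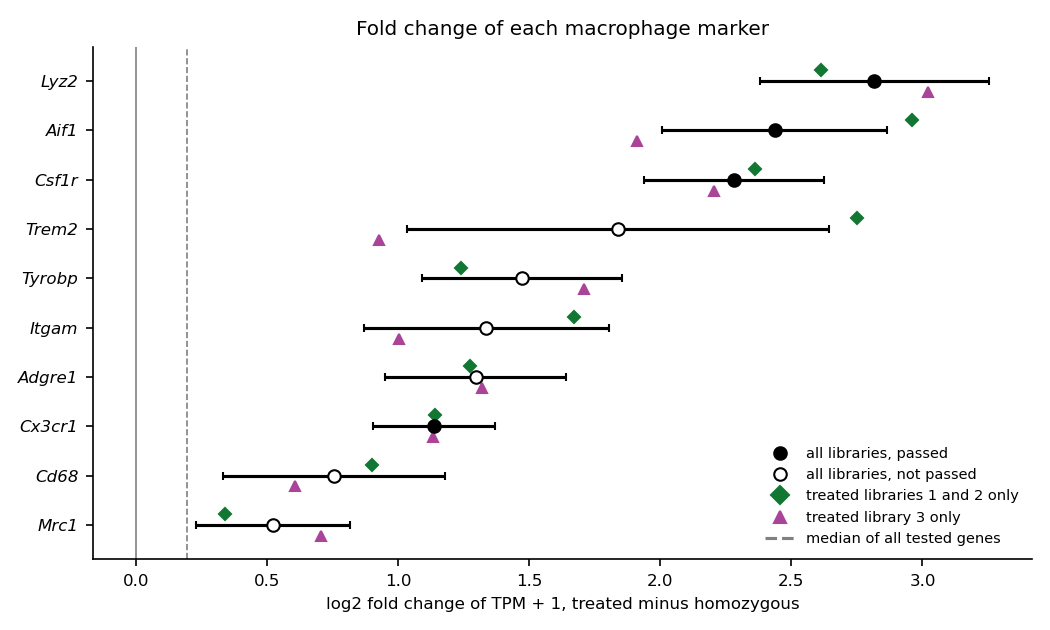
Log2 fold change of TPM + 1, treated minus homozygous, for each gene, with its standard error as a bar (circles, filled where the gene passed), and the same with only treated libraries 1 and 2 (diamonds) or only treated library 3 (triangles). All 10 genes lie to the right of 0 in all 3 fits; Trem2 and Aif1 show the widest distance between diamonds and triangles.

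The receptors that macrophages depend on for survival and for contact with other cells were both among the genes that rose. Csf1r encodes the receptor of colony stimulating factor 1 and interleukin 34. It was at 17.1, 38.6 and 22.0 TPM in the homozygous libraries and at 132, 127 and 116 TPM in the treated libraries. Each treated library had more than any homozygous one, and the homozygous libraries differed among themselves by up to 2.26 times. This difference passed (log2 fold change 2.28, SE 0.34, limma adjusted p = 0.025). Cx3cr1 encodes the fractalkine receptor and had 14.9, 15.1 and 14.7 TPM in homozygous and 35.3, 33.0 and 33.9 TPM in treated libraries. Its homozygous libraries differed less among themselves than those of any of the other 9 genes, and its change passed (log2 fold change 1.14, SE 0.23, limma adjusted p = 0.0486). That call was lost in 9 of 16 alternative fits. Among them were median-of-ratios scaling and leaving mitochondrial transcripts out of the scaling, with log2 fold changes of 0.96 and 1.02. The fits with no filter on low values, with no variance trend and without treated replicate 1 also lost it. Non-coding genes overlap Csf1r and Cx3cr1 in the RefSeq annotation, and whether strand was used in counting was not stated in the labels.

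Their ligand genes lay above 0 but did not pass. Csf1 had 12.7 ± 0.98 TPM in homozygous (SD, n = 3) and 25.4 ± 2.25 TPM in treated samples (SD, n = 2; limma adjusted p = 0.0827). Il34 was at 12.5, 11.4 and 15.9 TPM in homozygous libraries and at 48.6, 46.5 and 17.8 TPM in treated libraries (limma adjusted p = 0.172). Cx3cl1, the gene of fractalkine, was at 15.5, 14.4 and 20.8 TPM in homozygous and at 108, 105 and 34.5 TPM in treated libraries (limma adjusted p = 0.0758). For Il34 and Cx3cl1 the high values were those of treated libraries 1 and 2, the libraries with the forebrain genes, and the part of that tissue in them was not tested.

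Trem2 and Tyrobp encode a lipid-sensing receptor of macrophages and the adaptor through which it signals. Tyrobp was at 4.92, 9.68 and 8.49 TPM in homozygous libraries and at 18.4, 19.5 and 26.6 TPM in treated libraries. The groups did not overlap, and Tyrobp did not pass (log2 fold change 1.47, SE 0.38, limma adjusted p = 0.074). Trem2 was the most variable gene. It had 2.24, 6.06 and 0.49 TPM in homozygous libraries and 20.9, 20.7 and 5.17 TPM in treated libraries. Treated library 3 therefore fell below homozygous library 2, and Trem2 did not pass (log2 fold change 1.84, SE 0.81, limma adjusted p = 0.203). So the adaptor was highest in treated library 3, where its partner receptor was lowest among the treated libraries. Over all tested genes 3.44% rose and 0.965% fell. Of 9 tested genes for other TYROBP partners and for the kinases and phosphatases that act downstream, 3 rose and 0 fell, with a median log2 fold change of 1.16. Among them were Clec5a, another receptor that pairs with this adaptor, and Inpp5d, the lipid phosphatase SHIP1, with log2 fold changes of 2.43 and 2.53 (limma adjusted p = 0.0429 and 0.041). Clec5a had 11.7, 11.4 and 14.7 TPM in the treated libraries and at most 2.66 TPM in a homozygous library. With 0.64 TPM in homozygous library 3, it needed its treated values to pass the filter, so its call gives the count no independent support.

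Among surface proteins, Adgre1, Itgam and Mrc1 did not pass. Adgre1 encodes the F4/80 antigen. It was at 6.0, 4.41 and 7.28 TPM in homozygous and at 19.2, 11.7 and 15.9 TPM in treated libraries (log2 fold change 1.30, SE 0.35, limma adjusted p = 0.0785). It was the gene for which treated libraries 1 and 2 differed most, while the other 9 genes differed by under 10% between them. Pseudogenes overlap Adgre1 in the RefSeq annotation, so its level is uncertain. Itgam encodes the integrin chain CD11b and is also found on neutrophils and monocytes. It had 4.52, 6.85 and 2.53 TPM in homozygous and 16.0, 16.0 and 9.74 TPM in treated libraries (log2 fold change 1.34, limma adjusted p = 0.136). Mrc1 encodes the mannose receptor CD206, common on perivascular macrophages. Its level moved least of the 10 genes, from 14.6, 14.8 and 11.1 TPM to 17.7, 16.8 and 22.5 TPM (log2 fold change 0.52, SE 0.29, limma adjusted p = 0.301).

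The integrin chain that pairs with CD11b was among the genes that rose. Itgb2, which encodes the shared beta2 chain, was at 5.22, 4.64 and 1.25 TPM in homozygous and at 26.5, 24.5 and 33.7 TPM in treated libraries (log2 fold change 2.82, limma adjusted p = 0.0401). Counting Itgam, 3 of 4 tested beta2 integrin genes rose, beside 3.44% of all tested genes. Besides Itgb2 these were Itgal and Itgax, with log2 fold changes of 3.21 and 2.61. Itgax was below 1 TPM in every homozygous library and so was tested only through its treated values. Itgal, at 0.73, 1.42 and 0.39 TPM in the homozygous libraries, also needed its treated values to pass the filter. The calls of Itgal and Itgax give the count no independent support. Itgal encodes a partner chain typical of lymphocytes, and Itgax the CD11c chain of dendritic cells and some macrophages.

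The genes of intracellular and secreted proteins ranged from the largest to nearly the smallest change. Lyz2 encodes lysozyme M, made by macrophages, monocytes and neutrophils. It was the most abundant of the 10 genes, at 36.7, 75.7 and 25.2 TPM in homozygous and 259, 257 and 343 TPM in treated libraries, and made up 25.3% to 41.5% of the summed TPM of the 10 genes in homozygous and 46.3% to 57.6% in treated libraries. Lyz2 passed (log2 fold change 2.82, SE 0.44, limma adjusted p = 0.027), although reads may be shared with its near copy Lyz1, which was at 0.33 TPM or less in every library. Aif1 encodes IBA1, a calcium-binding protein of macrophages and microglia. It had 2.41, 3.22 and 3.26 TPM in homozygous libraries and 30.3, 29.1 and 13.8 TPM in treated libraries (log2 fold change 2.44, SE 0.43, limma adjusted p = 0.0363). Treated library 3 lay well below treated libraries 1 and 2 and still above every homozygous library. Cd68, the gene of a lysosomal glycoprotein, was at 3.42, 7.94 and 4.78 TPM in homozygous and at 10.6, 10.3 and 8.32 TPM in treated libraries. The groups were close without overlapping, and Cd68 did not pass (log2 fold change 0.76, SE 0.42, limma adjusted p = 0.302).

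The promoter letters of these genes are shown for the genes that rose and had an entry, and for Mrc1, which moved least. The RefSeq promoter table for build GRCm38.p6 matched 7 of the 10 genes; it held no entry for Csf1r, Adgre1 or Tyrobp. The 250 bases before each start site were searched on both strands for GAGGAA, the core bound by the myeloid factor PU.1, for GAAANNGAA, a pattern of interferon-response elements, and for TTGCNNCAA, a pattern bound by C/EBP factors. GAGGAA was present in 5 of the 7 windows and in 23.3% of the 32851 windows of the table. GAAANNGAA was present in 1 of the 7 and in 7.13% of all windows, and TTGCNNCAA in 0 of the 7 and in 1.74% of all windows. Matches are capitals below, where a match on the other strand reads TTCCTC. The windows are chr17:35176053-35176302 on the minus strand for Aif1, chr9:120068297-120068546 on the minus strand for Cx3cr1, chr10:117282273-117282522 on the minus strand for Lyz2 and chr2:14229164-14229413 on the plus strand for Mrc1.
Aif1: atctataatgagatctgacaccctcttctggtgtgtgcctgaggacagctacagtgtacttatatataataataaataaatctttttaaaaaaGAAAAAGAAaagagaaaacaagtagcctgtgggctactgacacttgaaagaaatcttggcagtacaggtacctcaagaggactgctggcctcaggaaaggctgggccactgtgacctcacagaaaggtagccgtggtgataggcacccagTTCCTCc
Cx3cr1: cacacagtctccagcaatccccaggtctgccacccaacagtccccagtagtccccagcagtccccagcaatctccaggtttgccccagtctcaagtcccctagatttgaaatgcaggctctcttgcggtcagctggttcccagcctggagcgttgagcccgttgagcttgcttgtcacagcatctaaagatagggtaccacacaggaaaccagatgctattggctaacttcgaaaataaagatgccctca
Lyz2: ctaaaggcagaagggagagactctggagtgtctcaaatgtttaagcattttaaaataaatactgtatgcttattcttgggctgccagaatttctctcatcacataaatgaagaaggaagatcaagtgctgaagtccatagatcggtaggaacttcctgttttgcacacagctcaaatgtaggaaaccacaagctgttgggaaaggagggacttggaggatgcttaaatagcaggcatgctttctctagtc
Mrc1: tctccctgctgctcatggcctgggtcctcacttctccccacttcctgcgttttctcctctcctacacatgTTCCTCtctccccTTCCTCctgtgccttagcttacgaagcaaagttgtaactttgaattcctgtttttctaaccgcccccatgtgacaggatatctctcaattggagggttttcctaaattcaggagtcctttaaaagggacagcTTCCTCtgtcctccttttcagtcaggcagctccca
Aif1 held GAGGAA close to its start site, with the first base at -7, and GAAANNGAA at -157. Mrc1 held GAGGAA 3 times, at -180, -167 and -35. The windows of Cx3cr1 and Lyz2, which rose, held none of the 3 patterns.

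Part of the myeloid transcription factor genes rose as well. Of 8 tested, 4 rose and 0 fell, where 3.44% of all tested genes rose and 0.965% fell. The median log2 fold change was 1.51, with 7 of 8 above 0, beside 61.0% of all tested genes. Runx1 lay below 0 (log2 fold change -0.18, limma adjusted p = 0.731), and Runx1 and Tfec overlapped between the groups. Spi1, which encodes PU.1, was at 2.82, 4.55 and 2.95 TPM in homozygous and at 23.3, 13.3 and 14.5 TPM in treated libraries (log2 fold change 1.98, limma adjusted p = 0.0407). Irf8, a factor needed for monocyte and microglial development, was at 3.42 ± 1.02 TPM in homozygous (SD, n = 3) and 19.5 ± 1.75 TPM in treated samples (SD, n = 2; log2 fold change 2.24, limma adjusted p = 0.0324). Cebpb, a C/EBP factor of inflammatory myeloid cells, rose by 1.87 in log2 (limma adjusted p = 0.0407), and Cebpa also rose, by 1.68 on that scale.

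Other myeloid genes gave 17 higher and 0 lower of 79 tested, counting the factors, integrins and TYROBP genes above, with a median log2 fold change of 0.85. Over all tested genes 3.44% were higher and 0.965% lower, with a median of 0.20, and these shares stand beside each list count below. Of 7 tested lysosomal genes 2 rose. Ctss, the gene of the macrophage protease cathepsin S, was at 39.5, 40.5 and 43.8 TPM in homozygous and at 310, 314 and 349 TPM in treated libraries (log2 fold change 2.97, limma adjusted p = 0.00145). That call held in all 16 alternative fits. Stab1, Plac8, Itgax, Irf8, Spi1, Cebpb, Clec5a, Fcgr4, Itgal and Itgb2 no longer passed when any 1 homozygous library was left out. Inpp5d, Fcgr3 and Grn no longer passed without homozygous replicate 1 or 3, and Axl without homozygous replicate 1. Without homozygous replicates 1, 2 and 3 in turn, 62, 158 and 67 of all tested genes were called higher, against 589 in the main fit. Grn, the gene of progranulin, had a log2 fold change of 1.46. Of 12 tested Fc, scavenger and pattern recognition receptors 2 rose, the antibody receptor genes Fcgr3 and Fcgr4. Fcgr3 was at 12.1 ± 1.85 TPM in homozygous (SD, n = 3) and 54.9 ± 2.84 TPM in treated samples (SD, n = 2; limma adjusted p = 0.0141). Fcgr4 was listed at 0 in homozygous libraries 1 and 3, at 0.55 TPM in homozygous library 2 and at 7.43, 7.36 and 9.71 TPM in treated libraries. Like Itgax, Fcgr4 was thus tested only through its treated values. Plac8, Itgal and Clec5a were below 1 TPM in at least 1 homozygous library and also needed their treated values to pass the filter. The calls of all these genes, Itgax and Fcgr4 included, give the counts no independent support. Of 14 tested genes of lipid-associated and phagocytic states 2 rose, Itgax and Axl, and the median log2 fold change was 0.50. Axl encodes a receptor for dying cells and went from 62.6 ± 7.49 to 265 ± 54.4 TPM (SD of 3 and of 2 samples; limma adjusted p = 0.00825), while Apoe, Gpnmb, Spp1 and Lgals3 of that list did not pass.

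**Figure D3:**
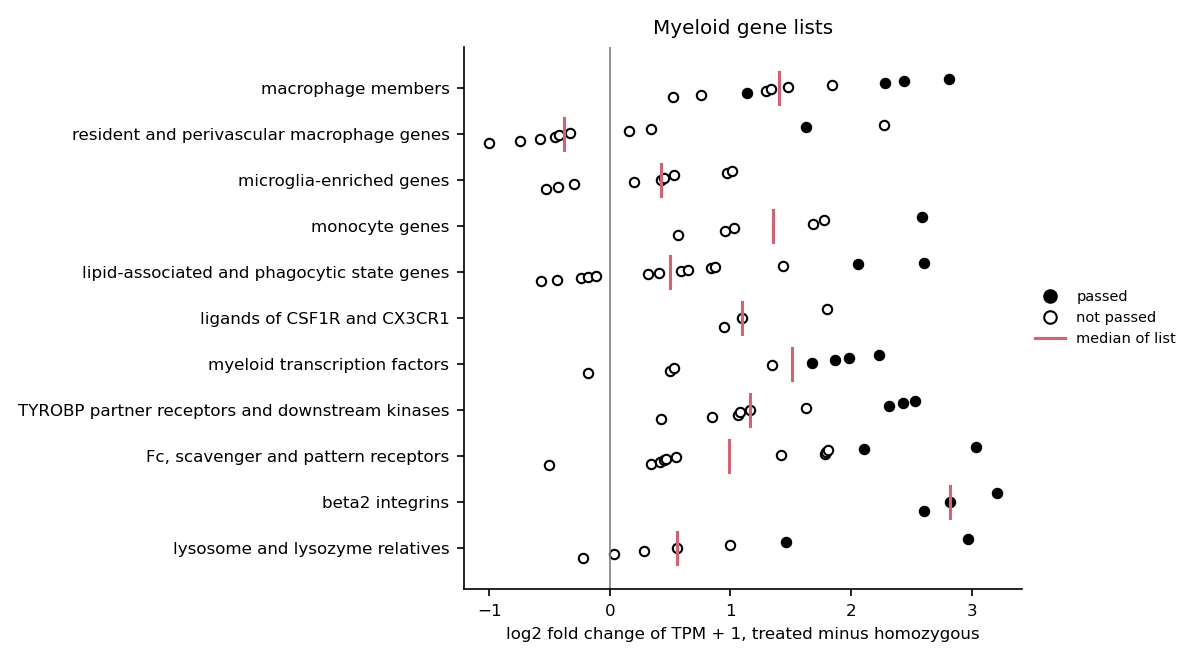
Log2 fold change of TPM + 1, treated minus homozygous, for each tested gene (points, filled where it passed) of the 10 macrophage genes and 10 further myeloid lists, with the list median as a red line. The resident and perivascular list has a median of -0.38 and the beta2 integrins one of 2.82.

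Genes typical of resident and perivascular macrophages and of blood monocytes were listed separately, and differences between the lists were not tested. Of 10 tested resident and perivascular genes 1 rose and 0 fell, with a median log2 fold change of -0.38. Of the 10, 6 lay below 0, as did 6667 of all 17102 tested genes. The resident gene that rose was Stab1, the gene of a scavenger receptor, from 14.95 ± 2.46 to 48.3 ± 9.26 TPM (SD of 3 and of 2 samples; limma adjusted p = 0.0315). Cd163, the haemoglobin scavenger receptor gene, was at 2.22, 3.22 and 1.70 TPM in homozygous and at 1.61, 1.55 and 1.70 TPM in treated libraries (limma adjusted p = 0.63). Lyve1, a hyaluronan receptor gene, had 4.95, 1.1 and 1.43 TPM in homozygous and 0.57, 0.54 and 0.57 TPM in treated libraries (limma adjusted p = 0.293). Siglec1, the gene of the sialic acid receptor CD169, was at 0.38, 1.12 and 0.85 TPM in homozygous and 12.1, 11.3 and 4.63 TPM in treated libraries and did not pass (log2 fold change 2.27, limma adjusted p = 0.0548). Of 6 tested monocyte genes 1 rose, with a median log2 fold change of 1.36, 6 of 6 above 0 and 3 of 6 without overlap. It was Plac8, from 1.77 ± 1.51 to 14.6 ± 3.95 TPM (SD of 3 and of 2 samples; limma adjusted p = 0.0468). Plac8 lost its call in 12 of 16 alternative fits. Of the 6 tested monocyte genes, only Vcan was at 1 TPM or more in every homozygous library. Plac8 and the others thus needed their treated values to pass the filter, and the counts of this list give no independent support. The monocyte chemokine receptor gene Ccr2 was at 1.28, 1.57 and 0.61 TPM in homozygous and 7.12, 6.50 and 5.71 TPM in treated libraries and did not pass (limma adjusted p = 0.0585). Cd163, Lyve1, Siglec1 and Ccr2 were chosen after their values were seen. Beside the 1 of 10 and 1 of 6 genes that rose in these lists, 3.44% of all tested genes rose.

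Of 9 tested microglia-enriched genes 0 passed limma, with 0 at an unadjusted p under 0.05, beside 4574 of all 17102 tested genes. The sum of that list was 125 to 159 TPM in homozygous libraries, 244 and 231 TPM in treated libraries 1 and 2 and 159 TPM in treated library 3. Treated library 3 was the lowest of the 6 libraries for 4 of the 9 genes and the highest for 2. P2ry12, the purinergic receptor gene that marks microglia, was at 3.49, 10.1 and 6.85 TPM in homozygous libraries, 13.7 and 12.8 TPM in treated libraries 1 and 2 and 0.81 TPM in treated library 3, and Siglech, Fcrls and Gpr34 were lowest there too. Tmem119, a membrane protein gene of microglia, was at 11.4, 33.0 and 11.7 TPM in homozygous libraries, 29.8 and 27.2 TPM in treated libraries 1 and 2 and 40.9 TPM in treated library 3 (limma adjusted p = 0.243). P2ry13, another purinergic receptor gene, was also highest in treated library 3, at 3.32 TPM. Apart from Tmem119, these genes were chosen after their values were seen. The part of microglia in the levels of the 10 macrophage genes was not tested. Of the 10 macrophage genes, 5 were lower in treated library 3 than in libraries 1 and 2 and 3 were higher, against 54.3% and 39.1% of all tested genes.

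Markers of other cells moved beside the macrophage genes. The 12 listed T and NK cell genes summed to 2.10 to 6.19 TPM in homozygous and 108 to 171 TPM in treated libraries. Of these 9 were tested and all 9 rose, but 6 of the 9 were below 1 TPM in every homozygous library. The others, Cd3e, Cd4 and Trbc2, were below 1 TPM in at least 1 homozygous library. All 9 thus needed their treated values to pass the filter, so the count gives no independent support. Gzmb, the granzyme B gene of cytotoxic cells, was listed at 0 in the 3 homozygous libraries and at 6.07, 5.97 and 9.84 TPM in the treated libraries, and Trac and Trbc2, T cell receptor genes, rose too. Trac and Gzmb no longer passed when any 1 homozygous library was left out, and Trbc2 no longer passed without homozygous replicate 2 or 3. Of 5 tested B cell genes and 4 tested dendritic cell genes 0 passed limma. In each list 1 was at an unadjusted p under 0.05, as were 4574 of all 17102 tested genes. Ighm and Pax5 were at 37.3 ± 8.48 and 4.98 ± 6.03 TPM in homozygous (SD, n = 3) and at 66.6 ± 12.3 and 13.8 ± 6.36 TPM in treated samples (SD, n = 2). For the dendritic cell genes Flt3 and Zbtb46 the log2 fold changes were -1.09 and 0.16. Of 14 tested interferon response genes 13 rose, among them Ifit3 and Zbp1, beside 3.44% of all tested genes. Zbp1, Isg15 and Cxcl10 of that list were below 1 TPM in at least 1 homozygous library. They needed their treated values to pass the filter, so their calls give the count no independent support. Of 7 tested astrocyte and oligodendrocyte genes 1 fell, which was Mog, a myelin gene, at 34.0, 14.7 and 34.0 TPM in homozygous and 3.29, 3.25 and 0 TPM in treated libraries (log2 fold change -3.70, limma adjusted p = 0.0415). The myelin genes Mobp and Mag were lower in every treated library and did not pass. Of the 7 genes 6 had a log2 fold change below 0, beside 6667 of all 17102 tested genes, and 1, Slc1a2, lay above. Slc1a2 was at 123, 137 and 137 TPM in homozygous and at 1229, 1236 and 174 TPM in treated libraries. It did not pass (log2 fold change 1.80, limma adjusted p = 0.175), and its highest values were in the libraries with the forebrain genes. Of 10 tested cochlear genes Otos, the gene of otospiralin, fell (log2 fold change -1.67, limma adjusted p = 0.0346), and Otog, the gene of otogelin, rose (log2 fold change 2.05, limma adjusted p = 0.0223). Mog and Otos no longer passed without any 1 homozygous library, and Otog without homozygous replicate 1 or 2. The part of these tissue differences in the macrophage genes was not tested.

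Neutrophil genes varied widely among the homozygous libraries. Of 11 tested 0 passed limma and 3 were at an unadjusted p under 0.05, a share near that of all tested genes (4574 of 17102). The list summed to 153, 623 and 57.7 TPM in homozygous and 225, 224 and 248 TPM in treated libraries. The median log2 fold change was 1.51, with 8 of 11 above 0 and 4 higher in every treated library than in any homozygous one. S100a9 and Ltf, genes of neutrophil proteins with the highest means of the list, were at 151 ± 158 and 39.4 ± 47.7 TPM in homozygous (SD, n = 3) and 46.6 ± 16.98 and 44.5 ± 19.1 TPM in treated samples (SD, n = 2). Csf3r, the receptor gene of granulocyte colony stimulating factor, was at 1.57, 2.79 and 0.75 TPM in homozygous and 30.1, 27.1 and 5.74 TPM in treated libraries (limma adjusted p = 0.0903). It was chosen after its values were seen, and Ly6g, Camp and Elane were the others without overlap. Ly6g was below 1 TPM in every homozygous library and so was tested only through its treated values. Csf3r and Elane were below 1 TPM in homozygous library 3 and also needed their treated values to pass the filter. Homozygous library 2 had the highest neutrophil sum and also the highest homozygous value of 8 of the 10 macrophage genes, among them Lyz2 and Itgam, which neutrophils express. The part of neutrophils in those values, in either group, was not tested.

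**Figure D4:**
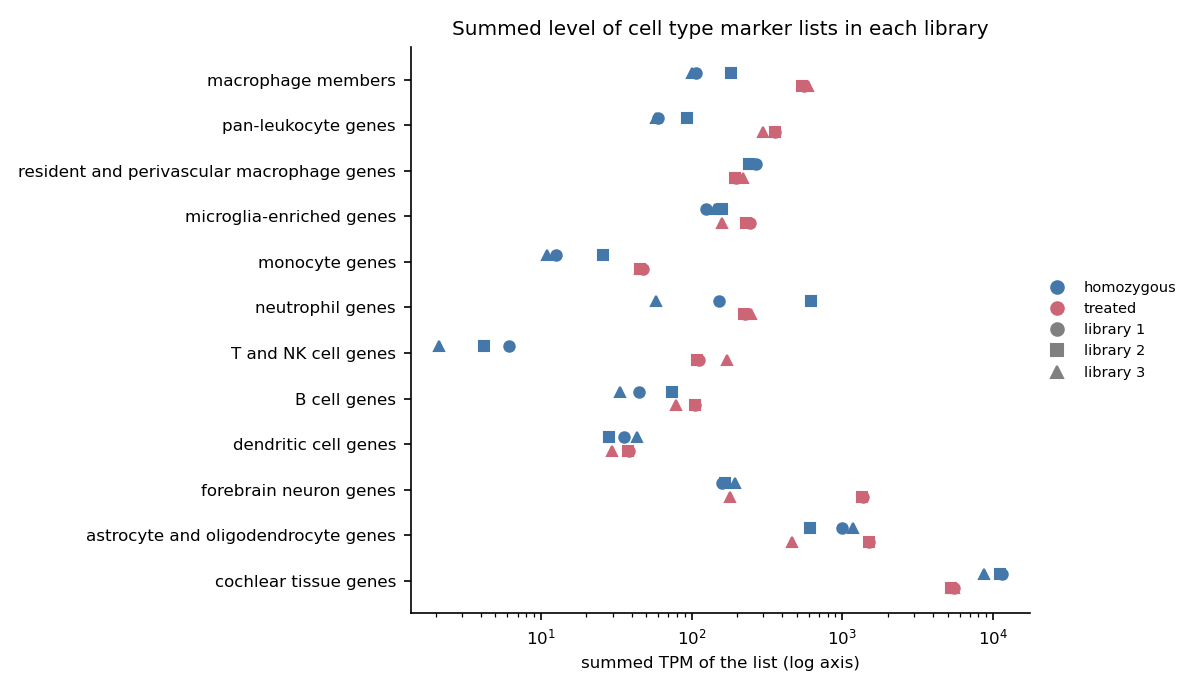
Summed TPM of each cell type marker list (horizontal log axis) in each homozygous (blue) and treated (red) library. The macrophage, pan-leukocyte, monocyte and T and NK cell sums are among those that separate the groups, and the forebrain sum sets treated libraries 1 and 2 apart from the other 4 libraries.

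The macrophage genes were also set against leukocytes as a whole. Ptprc, which encodes CD45 of all leukocytes, rose from 10.6, 10.7 and 7.06 TPM to 49.4, 46.7 and 49.1 TPM (log2 fold change 2.27, limma adjusted p = 0.0177). With it, 5 of 7 pan-leukocyte genes rose, beside 3.44% of all tested genes. Of the others, Cd53 was higher in every treated library without passing. Cd52 was at 5.03, 8.68 and 1.29 TPM in homozygous libraries and at 0, 0 and 14.5 TPM in treated libraries 1, 2 and 3. Ptprc no longer passed when any 1 homozygous library was left out. The sum of the 10 macrophage genes divided by the sum of the pan-leukocyte genes was 1.80, 1.96 and 1.71 in homozygous and 1.56, 1.52 and 1.99 in treated libraries, which overlap. Without Lyz2, the sum of the other 9 genes divided by Ptprc was 6.62, 9.99 and 10.6 in homozygous and 6.08, 6.08 and 5.13 in treated libraries, lower without overlap, while with Lyz2 it was 10.1, 17.1 and 14.2 in homozygous and 11.3, 11.6 and 12.1 in treated libraries, which overlap. Relative to Ptprc alone, a measure added after the values were seen and given without a test, 5 of the 10 genes were lower in each treated library than in every homozygous one and 0 were higher in this way. Ptprc itself rose, and 83.4% of all tested genes lay lower on this scale, so the 5 genes are not set apart from other genes by it. Mrc1 per Ptprc was 1.38, 1.38 and 1.58 in homozygous and 0.358, 0.36 and 0.458 in treated libraries. Cx3cr1 per Ptprc was 1.41, 1.42 and 2.09 in homozygous and 0.715, 0.706 and 0.69 in treated libraries, and Adgre1, Cd68 and Itgam were the others that lay lower. Csf1r, Aif1, Trem2, Tyrobp and Lyz2 overlapped between groups on this scale, with Csf1r per Ptprc at 1.61, 3.61 and 3.12 in homozygous and 2.67, 2.72 and 2.37 in treated libraries. T cell genes, which add to Ptprc, were higher in the same treated libraries, and their part in these ratios was not tested.

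**Figure D5:**
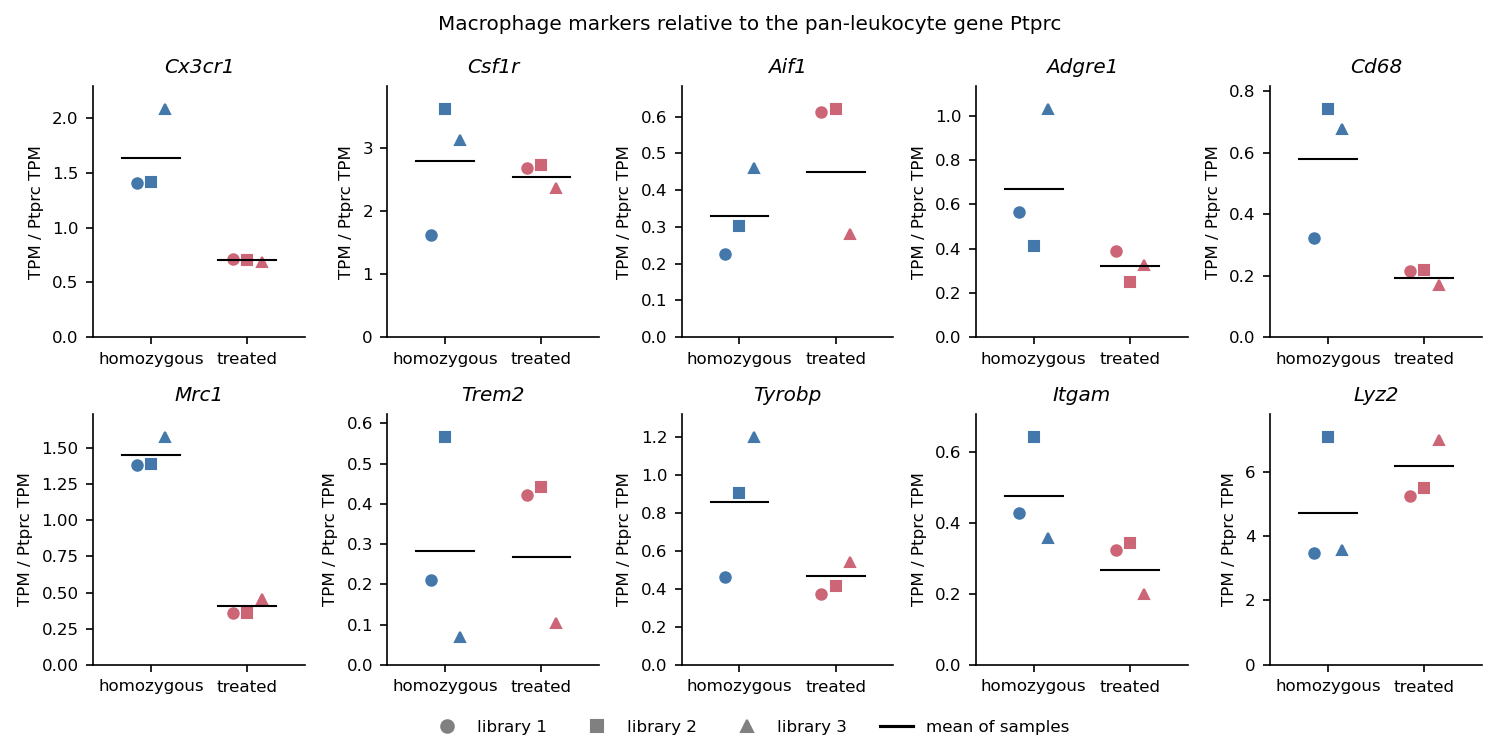
TPM of each macrophage gene divided by TPM of Ptprc (vertical axes, from 0) in homozygous (blue) and treated (red) libraries, with the mean of samples as a line. Mrc1 and Cx3cr1 lie lower in all treated libraries, while Csf1r and Lyz2 overlap between groups.

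The genes whose pattern over the 5 samples was most like the mean of the 10 macrophage genes were Pstpip1, Fem1a, Il1rn, Slc38a10 and Cd72, with Pearson correlations of log2 values of 0.999 to 1.00 across 5 samples. Many genes share such a pattern over so few samples, and 144 of 16861 candidates had a correlation above 0.99. Pstpip1, a cytoskeletal adaptor gene of leukocytes, was at 3.52, 6.77 and 3.04 TPM in homozygous and 32.7, 32.1 and 24.3 TPM in treated libraries. Cd72, the gene of a surface protein of B cells and some myeloid cells, was at 4.27, 11.4 and 4.49 TPM in homozygous and 70.0, 58.1 and 43.6 TPM in treated libraries.

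Between homozygous and WT cochleae, none of the 10 genes could be compared, because the first table held none of them. Of 92 other myeloid genes of the lists, 11 were in that table, a shorter list whose selection rule was not stated in the labels, and 10 were tested. Of these 3 were higher and 3 lower in homozygous libraries, where 17.9% of the 1348 tested genes of the table were higher and 33.5% lower. Mgl2, a lectin gene of tissue macrophages and dendritic cells, was at 0.24, 0.16 and 0.49 TPM in WT and at 2.49, 3.95 and 1.85 TPM in homozygous libraries (log2 fold change 1.51, limma adjusted p = 0.0104). It kept its call in all 9 alternative fits, none of which changed the filter on low values. Being below 1 TPM in every WT library, Mgl2 passed that filter only through its homozygous values. In the second table Mgl2 was at 3.56, 5.57 and 2.69 TPM in homozygous and 1.35, 1.34 and 3.39 TPM in treated libraries and did not pass (limma adjusted p = 0.472). Olfml3 and Spp1, secreted proteins that other cells also make, were higher with log2 fold changes of 0.85 and 0.74. Fcrls, a microglia-enriched receptor gene, Msr1, a scavenger receptor gene, and Cd9, a tetraspanin gene with many cellular sources, were lower with log2 fold changes of -0.78, -0.85 and -0.44. Olfml3 lost its call in 3, Spp1 in 4, Fcrls in 5 and Msr1 and Cd9 in all 6 fits with 1 library left out. Msr1 was below 1 TPM in every homozygous library and passed the filter only through its WT values. The calls of Mgl2 and Msr1 give the counts no independent support. Csf1, the ligand gene of CSF1R, was at 6.59, 14.3 and 8.43 TPM in WT and 14.8, 17.3 and 14.7 TPM in homozygous libraries and did not pass (log2 fold change 0.69, limma adjusted p = 0.0546). Because the table is a selected list, these counts are not independent evidence of a direction.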

How the data were processed

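The submitters' processing notes name kallisto 0.51.0, DESeq with no version, and build GRCm39. The deposited values were TPM in both tables, and strand settings and filters are not given in the sources used here. Values of repeated symbols were summed. The tests took genes that reached 1 TPM in 3 or more of a table's libraries, and 1 was added before taking log2. limma 3.58.1 in R 4.3.3 was fitted with group means and its trend option, within each table because the tables were normalized separately. All tests were two-sided and p-values were Benjamini-Hochberg adjusted over all tested genes and a threshold of 0.05. Nothing in the labels says that replicates came from separate animals beyond the word biological, so p-values measure the spread between these libraries. TPM keeps no depth, so no counting interval is given.

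The members, lists and rules were chosen with earlier results of these data known. All 10 macrophage genes were named, plus, from each further list, the called genes of smallest p (3 per direction at most), or the 2 with the highest mean where none passed. Some genes that the rule names are not reported here. Scripts were tested on simulated data with known changes. Alternatives covered the pseudocount, filter, scaling, variance trend, merging of libraries, a replicate block and leaving out libraries.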

Additional observations from a re-analysis of the deposited data

How the results depend on the processing

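Across 16 alternatives each, the 10 macrophage genes kept a positive log2 fold change, with 23 of 160 values losing a call and 4 gaining one. The main counts were 4 macrophage genes, 589 genes higher and 165 lower in treated libraries. No filter on low values, which adds genes at low levels to the adjustment, gave 0 macrophage genes (7 at an unadjusted p under 0.05), 127 higher and 7 lower genes. Without the variance trend 2 macrophage genes passed and 73 genes were lower. With the 3 treated libraries as separate samples 7 macrophage genes passed, with 2554 genes higher and 1009 lower, where the near-identical pair counts as separate samples. A replicate block on those 3 libraries gave 5 macrophage genes, 1127 higher and 358 lower, although equal numbers did not pair the libraries (correlations of their deviations from group means 0.03, -0.15 and -0.12). Treated library 3 alone gave 0 macrophage genes, 180 higher and 42 lower. With 1 library left out the counts ran from 0 to 4 macrophage genes, 62 to 2249 higher and 1 to 735 lower. Without treated replicate 3 (2249 higher), treated libraries 1 and 2 were the only treated sample. Median-of-ratios scaling moved the median of all genes from 0.20 to 0.03 and the share of higher calls from 78.1% to 63.5%, kept 3 macrophage genes, and gave Zbtb46 a log2 fold change of -0.014.

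In the first table the main counts were 241 higher and 451 lower in homozygous libraries. Median-of-ratios scaling gave 465 and 216, a replicate block 126 and 217, and leaving out 1 library 26 to 227 higher and 77 to 384 lower. The cause of these changes was not tested. The depth of the libraries is unknown, which limits what can be said of genes near 1 TPM such as Trem2.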
